A study of Mus musculus with 16 samples.

Results

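Livers of mice carrying KEAP1 with cysteine-to-serine substitutions (C226S and C613S) on both alleles were compared with and without a hepatocyte knockout of Trsp, the gene of the selenocysteine tRNA. The groups were defined by genotype, and earlier results of these data were known when the comparison and gene lists were chosen. The comparison used 8 of the 16 libraries of the series. The knockout group was Keap1C226SC613Shomo::Trspfl/fl::AlbCre, named the compound mutant here, and the reference was Keap1C226SC613Shomo::Trspfl/fl, named the Keap1 mutant control, with 4 livers each at 20 days of age. Both groups were homozygous for the KEAP1 substitutions and for the floxed Trsp allele, and only the compound mutant carried the AlbCre transgene. The other 8 libraries, Trspfl/fl and Trspfl/fl::AlbCre with normal Keap1, shared the fit and served for the test of whether the knockout effect differed between Keap1 genotypes. All samples were labelled male, and no label named the animals or litters, so p-values measure only the spread between these samples. In this comparison, effects of the Trsp knockout, of the AlbCre transgene and of litter or strain background cannot be told apart for any gene. AlbCre acts in hepatocytes, so the other cells of the liver keep Trsp, and in whole liver RNA fewer cells of a type and less RNA per cell cannot be told apart.

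Selenocysteine is inserted at a UGA codon by its own tRNA, and without that tRNA hepatocytes make no selenoproteins, among them glutathione peroxidases and thioredoxin reductases. KEAP1 holds down NRF2, the transcription factor of a battery of detoxifying and antioxidant genes, and releases it when its cysteines are modified. The cysteines replaced here belong to those through which KEAP1 senses hydrogen peroxide, and the study crossed their substitution with the loss of selenoproteins. The comparison asks which transcripts still changed in selenoprotein-deficient livers whose KEAP1 lacked these cysteines.

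The values are log2 of the normalized count plus 4, as deposited, and each fold change below is a difference on that scale, which understates changes of weakly expressed genes. Total reads were 15538699 to 19164140 in the Keap1 mutant controls and 13561209 to 16691889 in the compound mutants. Genes that reached a normalized count of 10 in 3 libraries or fewer were set aside, which left 15781 of 18209 genes with an identifier for limma over all 16 libraries. The study's thresholds defined a call, namely a Benjamini-Hochberg adjusted p under 0.01 with a log2 fold change beyond 1 either way. In the text, rose and fell refer to a limma adjusted p under 0.05, and SE is the standard error of a log2 fold change. The median fold change of all genes tested was -0.0049, with 7777 genes above 0 and 8002 below. Trsp was not analysed here. Compound mutant library 1 stood apart from its label, labelled male but holding 28799 reads on Xist, the RNA of the inactive X chromosome, where the other 15 held 22 to 50. Its 4 Y-linked genes together had 2 reads, where the other 15 had 1830 to 3066. Without that library, 11 genes were called higher and 11 lower, of which 8 and 10 were among the genes called with it. Alb took 4.86% and 6.35% of the reads in compound mutant libraries 1 and 3, 7.67% and 7.62% in libraries 2 and 4, and 8.65% to 10.7% in the controls.

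In the compound mutant 27 genes were called, 11 higher and 16 lower than in the Keap1 mutant control, which is 0.0697% and 0.101% of the genes tested. Among the higher genes were the detoxifying enzymes Gsta2, Aox1 and Ugdh and the iron-binding nuclear protein gene Pir. Among the lower genes were the selenoprotein genes Gpx1, Selenow and Selenop and the antigen presentation genes H2-K1, H2-D1, H2-Q7, H2-T22 and Cd74. The remaining higher genes were a group of 5 gene copies read almost only in the compound mutant, together with Nkiras1 and Extl1. In all 27 the libraries of both groups did not overlap. When each of the 8 compared libraries was left out in turn, 11 of the 27 were called in all 8 fits, while Ccdc68, Cd74 and Extl1 were called in 0. The 11 include the 5 gene copies, which passed the filter only through the compound mutant, so these refits give them no separate support. The others of the 11 were Nkiras1, H2-K1, Gpx1, Selenow, H2-D1 and Bco2. At an adjusted p under 0.05, 60 genes were higher (0.38% of those tested) and 66 were lower (0.418%). The groups did not overlap in 627 genes that were higher (3.97%) and 586 that were lower (3.71%), so that non-overlap alone was common in these livers. Of the 27 called genes, 6 were also called when Trspfl/fl::AlbCre was compared with Trspfl/fl. With normal Keap1 the study's thresholds picked out 30 genes as higher and 4 as lower, out of 15781.

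A subset of selenoprotein transcripts fell in the compound mutant. Of 24 selenoprotein genes, 21 were tested, 6 fell, 0 rose, and the median fold change of the 21 was -0.43. Gpx2 and Dio2 were under the filter and Selenov was not analysed here. The groups did not overlap in 8 lower members and 1 higher member, and 3 of the 6 met the thresholds of the study. Over all genes tested, 3.71% were lower and 3.97% higher without overlap, and the 1 higher member of 21 is near that share.

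Gpx1 (ENSMUSG00000063856), the main glutathione peroxidase of the cytosol, read 13.48, 13.34, 13.35 and 13.95 in the Keap1 mutant controls and 11.59, 11.81, 11.50 and 11.85 in the compound mutants. Every compound mutant library was well below every control, with means of 13.53 ± 0.29 and 11.69 ± 0.17 (SD, n = 4). The difference was -1.84 (SE 0.21, limma adjusted p = 0.000434), and the mean normalized count in the compound mutant was 0.276 of the control. Selenow (ENSMUSG00000041571), a small selenoprotein of the thioredoxin-like fold, read 8.81, 8.65, 8.65 and 9.0 in the controls and 7.78, 7.59, 7.53 and 7.59 in the compound mutants. The groups again lay apart, by -1.15 (SE 0.14, limma adjusted p = 0.000913). Selenop (ENSMUSG00000064373), the plasma protein with which the liver supplies selenium to other organs, read 16.76, 16.52, 16.69 and 16.88 in the controls and 15.04, 15.72, 15.51 and 15.33 in the compound mutants. It was the most abundant of the called selenoprotein transcripts in normalized counts and fell by 1.31 (SE 0.18, limma adjusted p = 0.00265), with the call kept in 6 of the 8 fits that left out 1 compared library.

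Smaller falls were found in an organelle enzyme, a membrane protein and a repair enzyme. Txnrd2, the thioredoxin reductase of mitochondria, fell by 0.85 (SE 0.12, limma adjusted p = 0.00326), and Selenot, an endoplasmic reticulum protein, fell by 0.76 (SE 0.11, limma adjusted p = 0.00359). Msrb1, a methionine sulfoxide reductase, read 11.47 to 11.57 in the controls and 10.34, 10.69, 10.71 and 11.16 in the compound mutants, with library 4 nearest to the controls. Its fall was 0.78 (limma adjusted p = 0.0273).

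Other selenoprotein transcripts did not pass the test. Dio1, the deiodinase that activates thyroid hormone, read 10.44, 9.84, 10.56 and 10.01 in the controls and 8.99, 8.62, 9.0 and 8.48 in the compound mutants. Every compound mutant was below every control, and the fold change of -1.43 had a wide 95% interval of -2.86 to -0.01 (limma adjusted p = 0.364). The interval uses the spread of all 4 genotypes. The SD of Dio1 was 0.34 in the controls and 0.26 in the compound mutants, but 1.43 in Trspfl/fl and 1.55 in Trspfl/fl::AlbCre. Dio1 was called in 0 of 26 alternatives. Gpx4, the peroxidase that reduces lipid hydroperoxides in membranes, read 10.39, 10.15, 10.30 and 10.55 in the controls and 10.57, 10.63, 10.50 and 10.59 in the compound mutants, and the groups overlapped. Its fold change was 0.22 (95% interval 0.02 to 0.42, limma adjusted p = 0.318). Txnrd1, the cytosolic thioredoxin reductase and also a target of NRF2, had a fold change of -0.30 (95% interval -0.61 to 0.02, limma adjusted p = 0.4). Selenoh, a nuclear selenoprotein, read 6.2, 5.99, 6.53 and 6.0 in the controls and 5.88, 5.53, 4.98 and 4.52 in the compound mutants. The groups did not overlap, but the difference of -0.95, larger than those of Txnrd2, Selenot and Msrb1, missed the threshold (limma adjusted p = 0.179). Selenom was the member whose compound mutant libraries all lay above the controls, at 4.76 to 5.37 against 3.85 to 4.65 (fold change 0.82, limma adjusted p = 0.168).

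**Figure D1:**
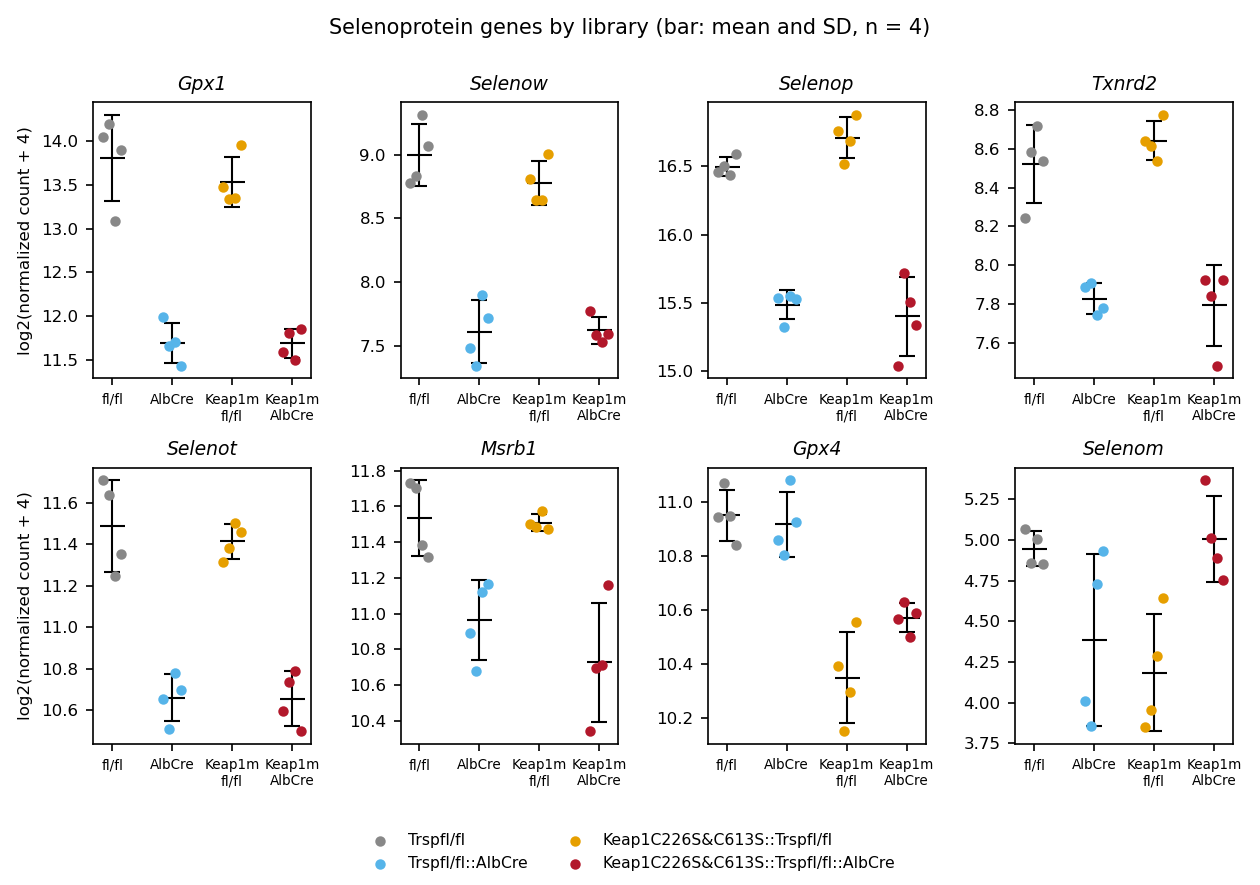
Each panel gives 1 selenoprotein gene, with log2(normalized count + 4) on the y axis and the 4 genotypes on the x axis (fl/fl for Trspfl/fl, AlbCre for Trspfl/fl::AlbCre, Keap1m for the C226S and C613S substitutions). Points are libraries and bars the mean and SD of 4. In Gpx1 the compound mutants sit between 11.50 and 11.85, below the Keap1 mutant controls at 13.34 to 13.95, while in Gpx4 both groups overlap.

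No dependence of these falls on the Keap1 genotype was shown. Between Trspfl/fl and Trspfl/fl::AlbCre the log2 fold changes were -2.11 for Gpx1, -1.39 for Selenow, -1.01 for Selenop, -0.69 for Txnrd2 and -0.83 for Selenot. The difference between knockout effects, tested as an interaction in limma, was 0.27 for Gpx1 (95% interval -0.37 to 0.90, adjusted p = 0.754) and -0.30 for Selenop (95% interval -0.85 to 0.25, adjusted p = 0.68). Over the 21 members, 0 had an interaction with an adjusted p under 0.05, and the median interaction was 0.19. Of the 9 tested genes of selenocysteine synthesis and insertion, 1 rose, Sars, the seryl-tRNA synthetase that charges this tRNA among others, from 8.86 ± 0.28 to 9.57 ± 0.18 (limma adjusted p = 0.0183).

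NRF2 target genes rose in part. Of 42 listed, 41 were tested, 9 rose, 0 fell, and 4 of the 9 met the thresholds of the study. The groups did not overlap in 12 members, each higher, where 3.97% of all genes tested were higher without overlap. The list median was 0.18, with 27 members above 0 and 14 below, while these genes had a median of 1.16 in Trspfl/fl::AlbCre against Trspfl/fl.

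Promoter sequence is shown for the 2 of the 9 risen targets that held an antioxidant response element core within 250 bases upstream of the annotated start, to show the motif that NRF2 binds with its small MAF partner. The letters searched were TGACNNNGC on either strand, and all 9 genes had a promoter entry. Counted by promoter entry rather than by gene, the same core was found in 10.2% of 32851 promoters. The windows come from RefSeq on GRCm38.p6, 5′ to 3′ along the gene, with the core in capitals. The Ugdh window is chr5:65435905-65436004 on the minus strand and starts 162 bases upstream. The Pir window is chrX:164269187-164269286 on the plus strand and starts 244 bases upstream.
Ugdh: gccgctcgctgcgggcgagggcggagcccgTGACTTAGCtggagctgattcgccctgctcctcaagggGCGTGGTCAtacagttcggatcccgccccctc
Pir: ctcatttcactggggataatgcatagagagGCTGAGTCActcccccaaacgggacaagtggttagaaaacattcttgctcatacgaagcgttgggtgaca
Ugdh held the core at 2 positions and Pir at 1, and in Nqo1, Gsta1, Gsta2, Aox1, Srxn1, Me1 and Ephx1 these letters were not in this window.

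Gsta2 had the largest log2 fold change of the 9 on the scale used here. Gsta2 (ENSMUSG00000057933), an alpha class glutathione S-transferase, read 6.11, 4.47, 4.79 and 5.85 in the Keap1 mutant controls and 7.88, 8.86, 7.75 and 9.48 in the compound mutants. All compound mutants exceeded all controls, and libraries 2 and 4 were the highest. The difference was 3.19 (SE 0.43, limma adjusted p = 0.00205), a mean normalized count 10.1 times that of the controls. Gsta1, its close paralog, was near the limit of detection, with 2 reads in the 4 controls together and 58 in the compound mutants, a ratio of 30.1 (95% exact interval 7.97 to 255, counting error only). Salmon divides reads between near-identical copies, so values of Gsta1 and Gsta2 are uncertain. Without control library 3, Gsta2 was no longer called, although its fold change stayed between 2.86 and 3.46 when any 1 of the 8 libraries was left out.

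Ugdh (ENSMUSG00000029201), which makes the UDP-glucuronic acid used in glucuronidation, read 9.13, 8.48, 8.64 and 8.81 in the controls and 10.17, 9.96, 9.65 and 10.93 in the compound mutants. The rise was 1.41 (SE 0.22, limma adjusted p = 0.00629). Aox1 (ENSMUSG00000063558), an aldehyde oxidase, read 7.67, 7.69, 7.72 and 6.89 in the controls and 9.03, 9.26, 8.58 and 9.99 in the compound mutants. Control library 4 lay below the other controls, and compound mutant library 4 above the other compound mutants. The fold change was 1.73 (SE 0.27, limma adjusted p = 0.00562). Pir (ENSMUSG00000031379), encoding pirin, rose from 7.0 ± 0.11 to 8.01 ± 0.28, by 1.01 (SE 0.14, limma adjusted p = 0.00263), just over the fold threshold. Aox1 and Ugdh were still called in 2 and 3 of the 8 fits that left out 1 of the compared libraries, and Pir in 4.

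Nqo1 (ENSMUSG00000003849), the quinone reductase that is often used as a readout of NRF2, read 5.6, 5.59, 5.40 and 5.61 in the controls and 6.88, 7.16, 6.17 and 6.52 in the compound mutants. The compound mutants were all higher, and their spread was wider than that of the controls. Nqo1 rose by 1.13 (SE 0.21, limma adjusted p = 0.0171). The levels in Trspfl/fl were 7.35, 7.57, 7.21 and 7.37 and in Trspfl/fl::AlbCre 10.16, 9.40, 9.73 and 9.29, so that every compound mutant library lay below every Trspfl/fl library. Srxn1, the sulfiredoxin that restores oxidized peroxiredoxins, rose by 0.74 (limma adjusted p = 0.012), and the epoxide hydrolase gene Ephx1 rose by 1.41 (limma adjusted p = 0.0209). Me1, the malic enzyme that supplies NADPH, rose from 7.75 ± 0.50 to 9.63 ± 0.30 (limma adjusted p = 0.0493).

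Other targets named by the study did not pass the test. Gstm1, the abundant mu class transferase, read 12.51, 12.39, 12.60 and 12.20 in the controls and 11.74, 13.02, 12.10 and 13.56 in the compound mutants. Libraries 1 and 3 lay below every control and libraries 2 and 4 above every control, and the fold change was 0.18 (95% interval -0.45 to 0.80, limma adjusted p = 0.85). Gclc, the catalytic subunit of the first step of glutathione synthesis, showed the same order, with 10.82, 11.58, 11.24 and 12.09 in the compound mutants around a control mean of 11.44. Its fold change had a 95% interval of -0.54 to 0.54. Gsta4, with 8.39, 9.47, 8.72 and 9.69, also had libraries 2 and 4 as the highest (fold change 0.25, limma adjusted p = 0.691). Txn1, cytosolic thioredoxin, had a fold change of 0.05 (95% interval -0.25 to 0.34). The transcripts of the pathway itself did not pass either, with a fold change of 0.01 for Keap1 (95% interval -0.26 to 0.29) and -0.30 for Nfe2l2, the gene of NRF2 (95% interval -0.64 to 0.03).

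**Figure D2:**
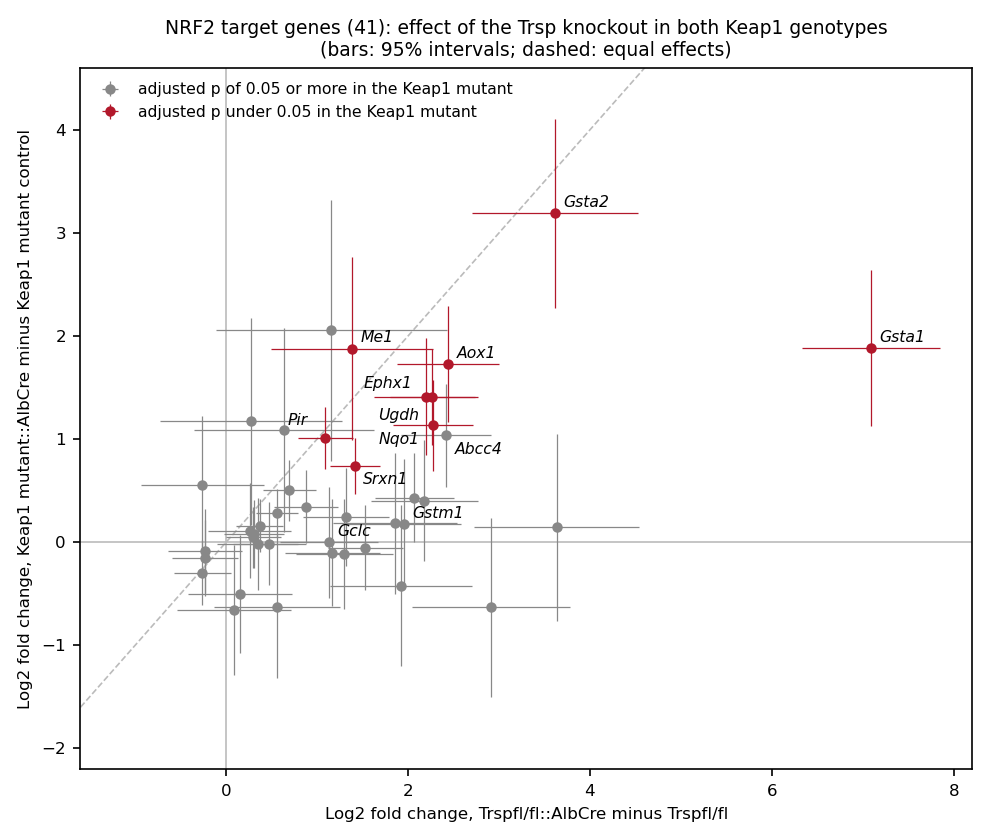
Each of 41 NRF2 target genes is placed by its log2 fold change in Trspfl/fl::AlbCre against Trspfl/fl (x axis) and in the compound mutant against the Keap1 mutant control (y axis), with 95% intervals as bars and equal effects on the dashed line. Red marks the 9 genes with an adjusted p under 0.05 on the y axis, and the interaction was below 0 for 34 of the 41 genes.

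The fitted knockout effect was lower with the KEAP1 substitutions for most members, and the difference had an adjusted p under 0.05 for 5, where 15 of all genes tested (0.0951%) had one. The interaction was below 0 for 34 of 41 NRF2 targets and above 0 for 7, with a median of -0.67, against 7856 and 7925 and a median of 0.0022 over all genes tested. The 5 were Gsta1, Gstm3, Gstp1, Cbr1 and Cbr3, which were named after their values were seen. Gsta1 differed by -5.21 (SE 0.50, limma adjusted p = 7.17e-05), with a knockout effect of 7.09 between the groups with normal Keap1 and of 1.88 between the Keap1 mutant groups. The Keap1 mutant controls held 2 reads of Gsta1 together, a level at which this scale understates a rise. The size of the Gsta1 difference is therefore uncertain. At the thresholds of the study 9 genes of all those tested had an interaction, 0.057%. With constants of 1 and 0.5 in place of 4, the negative ones numbered 2 and 1. For Gsta2 and Pir, both called in the compound mutant, the interaction was -0.42 (95% interval -1.71 to 0.87) and -0.08 (95% interval -0.50 to 0.34). For Me1 it was 0.49 (95% interval -0.76 to 1.75), so that neither a smaller nor a larger effect was shown. The starting level also differed, since 38 of the 41 genes had a lower mean in the Keap1 mutant control than in Trspfl/fl, and 26 were still lower in the compound mutant than in Trspfl/fl.

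A share of the antigen presentation genes fell in the compound mutant. Of 28 MHC genes, 25 were tested, 8 fell, 0 rose, and 5 of the 8 met the thresholds of the study. The groups did not overlap in 18 members, each lower, where 3.71% of all genes tested were lower without overlap. The list median was -0.97. Class I molecules present peptides of the cell to CD8 T cells, and class II molecules, with the invariant chain Cd74, present peptides taken up from outside.

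H2-K1 (ENSMUSG00000061232), a classical class I heavy chain, read 13.14, 13.09, 12.91 and 12.69 in the Keap1 mutant controls and 11.05, 11.10, 10.99 and 11.63 in the compound mutants. The compound mutants were more than 1 log2 unit below every control, and the fold change was -1.77 (SE 0.19, limma adjusted p = 0.000271). The same gene read 12.04 to 12.70 in Trspfl/fl and 11.62 to 12.48 in Trspfl/fl::AlbCre, and these group means lay between those of the Keap1 mutant groups. H2-D1 (ENSMUSG00000073411), the other classical heavy chain gene tested, read 13.12, 13.14, 12.88 and 12.75 in the controls and 11.76, 11.82, 11.86 and 11.61 in the compound mutants (fold change -1.21, limma adjusted p = 0.00148). The nonclassical genes H2-Q7 (-2.14), H2-T22 (-1.19) and H2-T23 (-0.93) fell as well, with H2-T22 still called in 2 and H2-Q7 in 6 of the 8 fits that left out 1 compared library. Members of this gene family are near-identical in part, so reads can be assigned between them.

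Class II and peptide transport genes fell as well. Cd74 (ENSMUSG00000024610) read 10.79, 11.12, 10.81 and 10.87 in the controls and 9.11, 9.64, 9.61 and 8.94 in the compound mutants, a fold change of -1.58 (SE 0.25, limma adjusted p = 0.00777). H2-Ab1, a class II beta chain, read 8.85 to 9.12 in the controls and 7.22 to 8.12 in the compound mutants (limma adjusted p = 0.0445). Tap1, which pumps peptides into the endoplasmic reticulum, fell by 1.59 (limma adjusted p = 0.0126), and Nlrc5, the transactivator of class I genes, fell by 1.02 (limma adjusted p = 0.0107). Cd1d1, a lipid-presenting molecule related to class I, fell from 10.35 ± 0.07 to 9.19 ± 0.32 (limma adjusted p = 0.0157). Cd74 lost its call at the study thresholds in each of the 8 fits that left out 1 compared library, with fold changes between -1.68 and -1.45.

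Values of interferon-stimulated genes were also lower. All 39 tested members of 40 listed had a negative fold change, 5 fell, 2 of them called, and the list median was -1.14. The median deviation of the list from the control mean was -0.45, 0.10, -0.57 and 0.83 in the controls. In the compound mutants it was -0.69, -1.12, -0.53 and -1.82, so the groups overlapped and control libraries 2 and 4 were the highest. The 5 were Tgtp1, Igtp and Irgm2, which encode GTPases against intracellular pathogens, Usp18, which removes ISG15 from proteins, and Psmb9, a subunit of the immunoproteasome. The antiviral genes Isg15 and Rsad2, named after their values were seen, had fold changes of -0.26 and -0.15 (limma adjusted p = 0.882 and 0.927).

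Promoters of the fallen MHC and interferon genes are shown where they held a paired GAAA motif, the kind of sequence read by interferon regulatory factors. The search was for GAAA, any 2 bases and GAAA again, on either strand within 250 bases upstream. Of the 13 genes of both lists that fell, 10 had a promoter entry and 5 of these held the motif in any entry. Counted by promoter entry rather than by gene, 2.98% of all 32851 promoters held it. The units differ and the genes were listed for their interferon or MHC role, so an enrichment was not tested. The windows come from RefSeq on GRCm38.p6, in the direction of the gene, with the motif in capitals. They are chr11:48992254-48992353 (minus strand) for Tgtp1, chr11:58199456-58199555 (plus strand) for Igtp, chr11:58214877-58214976 (plus strand) for Irgm2 and chr17:36042864-36042963 (minus strand) for H2-T22, and H2-T23 was the fifth.
Tgtp1: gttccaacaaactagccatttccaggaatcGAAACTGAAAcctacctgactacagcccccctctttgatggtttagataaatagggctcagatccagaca
Igtp: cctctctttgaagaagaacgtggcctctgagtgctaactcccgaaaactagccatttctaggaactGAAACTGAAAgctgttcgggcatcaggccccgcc
Irgm2: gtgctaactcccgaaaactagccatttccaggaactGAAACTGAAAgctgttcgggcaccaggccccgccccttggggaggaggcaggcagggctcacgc
H2-T22: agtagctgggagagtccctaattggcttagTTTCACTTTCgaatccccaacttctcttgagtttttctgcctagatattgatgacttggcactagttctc
The 3 GTPase genes held the same 10 letters, and H2-T22 held the motif on the other strand.

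Tgtp1 (ENSMUSG00000078922) read 9.26, 11.75, 9.75 and 12.04 in the Keap1 mutant controls and 7.30, 6.98, 7.91 and 6.64 in the compound mutants. Control libraries 2 and 4 were more than 2 log2 units above control library 1, and the spread within the controls (SD 1.40) was the widest of the called genes. The fold change was -3.49 (SE 0.58, limma adjusted p = 0.00963), and the call was lost in 7 of the 8 fits that left out 1 compared library. Igtp read 9.40, 11.47, 9.99 and 11.74 in the controls, with the same 2 libraries high, and 8.04 to 8.44 in the compound mutants (limma adjusted p = 0.0243). Usp18 read 8.10, 8.48, 8.13 and 8.79 in the controls and 7.37, 6.71, 7.05 and 6.56 in the compound mutants, with a fold change of -1.46 (limma adjusted p = 0.00648), and like Tgtp1 it was still called in 1 of the 8 fits.

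**Figure D3:**
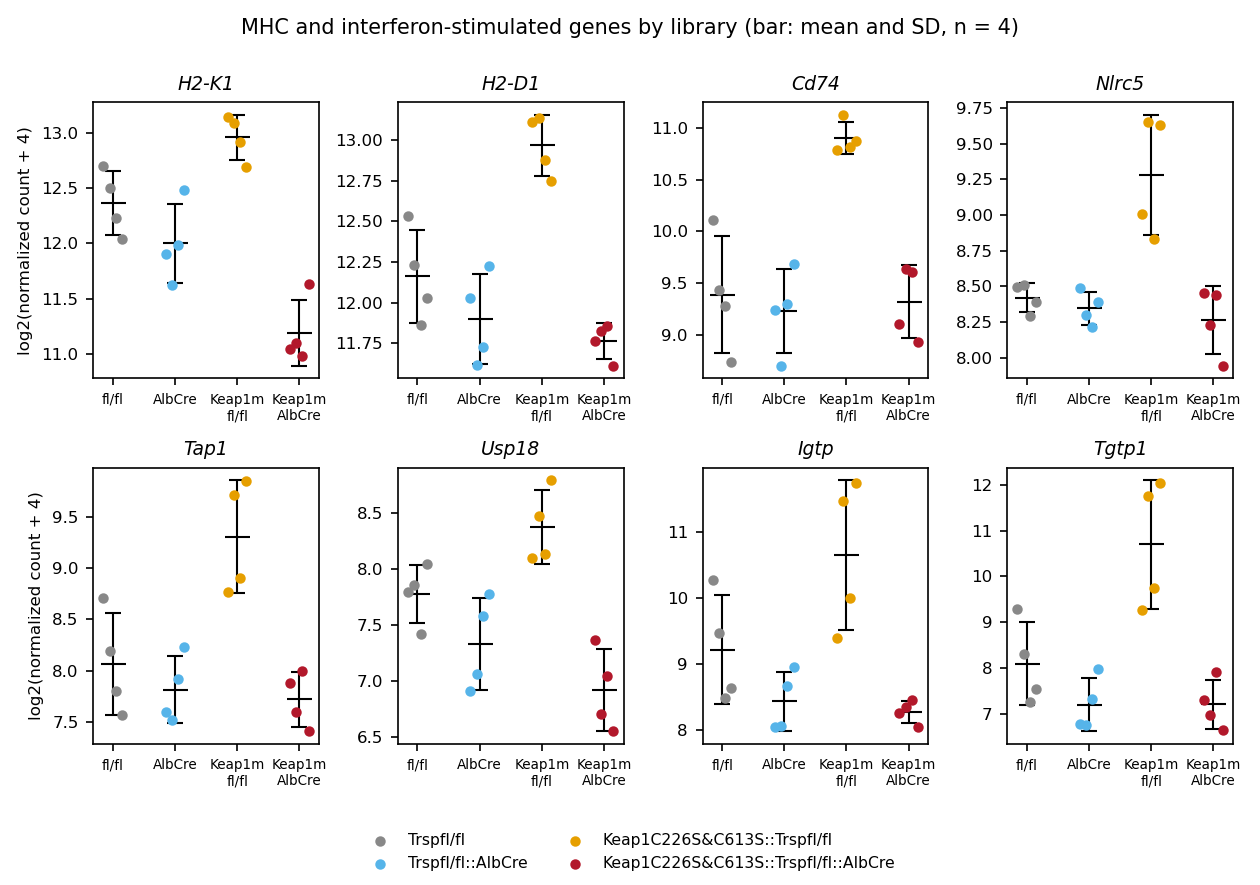
Log2(normalized count + 4) of 8 MHC and interferon-related genes (y axes) is plotted by genotype (x axes), with points for libraries and bars for the mean and SD of 4. The Keap1 mutant controls are the highest group in each panel by mean, and in Cd74 the compound mutants at 8.94 to 9.64 overlap both groups with normal Keap1.

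The Keap1 mutant control had the higher means against Trspfl/fl for most of these genes. Of 25 MHC genes, 22 had a higher mean in the Keap1 mutant control than in Trspfl/fl, with a median difference of 0.65, and the compound mutant was lower than Trspfl/fl in 17, with a median difference of -0.13. Of 39 interferon-stimulated genes, 34 were higher in the Keap1 mutant control than in Trspfl/fl, with a median difference of 0.49, and 37 were lower in the compound mutant than in Trspfl/fl, with a median difference of -0.49. In Trspfl/fl::AlbCre against Trspfl/fl the list medians were -0.20 and -0.33, and 0 members were called. The interaction was below 0 for 21 of 25 and 36 of 39 members, but 0 had an adjusted p under 0.05, so a dependence on Keap1 was not shown for any single gene. For Cd74 it was -1.42 (95% interval -2.18 to -0.65, limma adjusted p = 0.242).

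Markers of lymphocytes and macrophages were lower by value as well, and those of neutrophils were higher. Of the T and NK cell markers, 10 of 16 were tested, 0 passed an adjusted p under 0.05 and all 10 were below 0 (median -0.71), and their summed normalized count was 198 to 368 in the controls and 103 to 189 in the compound mutants. The B cell markers, 11 tested, had sums of 554 to 1020 and 331 to 745, and the Kupffer cell and macrophage markers, 17 tested, had 10100 to 24600 and 7060 to 14700. Of 11 neutrophil markers tested, 10 were above 0 with a median of 0.30 and 0 passed, and their sums were 638 to 2130 in the controls and 906 to 2730 in the compound mutants. For comparison the controls with normal Keap1, Trspfl/fl, had sums of 141 to 283, 241 to 414, 8110 to 16800 and 397 to 1680 for these lists in the same order. None of these markers was at 0 in all 8 libraries. Their part in the lower MHC and interferon values was not tested.

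A group of 5 gene copies was read almost only in the compound mutant, with at most 1 read in any of the other 12 libraries. These copies passed the filter only through the compound mutant libraries. Rpl15-ps6 had 231, 246, 255 and 252 reads in the compound mutants and 1 read in the controls together. Gm3375 had 187, 192, 194 and 194 reads, and Rprl3 had 266, 196, 308 and 163. All 4 compound mutant libraries carried these reads, library 1 included. The ratios to the controls were 1020 for Rpl15-ps6 (95% exact interval 183 to 40400), 797 for Gm3375 (143 to 31500) and 969 for Rprl3 (174 to 38300), where intervals cover counting error only. Rpl15-ps2 had 70, 109, 91 and 95 reads and Gm5898 had 37, 40, 50 and 96, against 0 in the controls. With 3 reads over the control group as the floor, they were at least 126-fold and at least 77.2-fold higher.

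These are copies of expressed genes. In the GENCODE M21 transcripts on GRCm38, Rpl15-ps6 (chromosome 15) matched Rpl15, a protein of the large ribosomal subunit, in 99.7% of 612 bases, and Rpl15-ps2 (chromosome 9) matched it in 98.7% of 613. Gm3375 (chromosome 7) matched Psmb5, a catalytic proteasome subunit, in 98.9% of 796 bases, and Gm5898 (chromosome 7) matched Thrap3, a splicing-related factor, in 99% of 2038. Rprl3 (chromosome 8) is annotated as a ribozyme, and its best match was Rprl2 (chromosome 3), in 92.1% of 290 bases. It matched Rpph1, the RNA of ribonuclease P, over part of its length, in 94.1% of 204 bases. The sequences below show how little separates such a copy from its source. They are read from the same transcripts, over coding bases 136 to 210 of the 615 of Rpl15, with the differing bases in capitals.
Rpl15: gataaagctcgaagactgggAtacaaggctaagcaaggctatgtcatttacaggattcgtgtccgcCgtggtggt
Rpl15-ps6: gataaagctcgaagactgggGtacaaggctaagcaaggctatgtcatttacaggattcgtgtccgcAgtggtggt
Counted from the first coding base of Rpl15, the differences are A156G and C202A, the only 2 in the aligned sequence. A156G was also 1 of the 8 differences of Rpl15-ps2. The second pair covers coding bases 241 to 314 of the 795 of Psmb5.
Psmb5: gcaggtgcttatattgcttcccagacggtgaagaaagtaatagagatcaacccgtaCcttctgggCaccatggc
Gm3375: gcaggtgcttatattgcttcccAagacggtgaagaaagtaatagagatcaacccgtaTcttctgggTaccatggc
Here C297T, C306T and 1 inserted base separate the copy from Psmb5.

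The source genes, named after their values were seen, did not pass the test. Rpl15 had 2876, 3404, 3193 and 2661 reads in the compound mutants and 2374, 2368, 2777 and 3097 in the controls (fold change 0.25, limma adjusted p = 0.335). Psmb5 had a fold change of 0.09 (limma adjusted p = 0.773), Thrap3 one of -0.29 (limma adjusted p = 0.387) and Rpph1 one of 0.22 (limma adjusted p = 0.824). The reads on Rpl15-ps6 in compound mutant library 1 stood beside 2876 on Rpl15. Salmon assigns a read that matches several copies in proportion to its estimate, so whether these reads came from the copies or from transcripts of the source genes was not tested, and these calls are uncertain. The labels name no litter or strain background, so a sequence difference between the animals of both groups and an effect of the knockout cannot be told apart for these copies. Nkiras1 (ENSMUSG00000021772), an inhibitor of NF-kappa-B signalling and on GRCm38 a neighbour of Rpl15 on chromosome 14, rose from 99, 105, 91 and 79 reads to 214, 217, 205 and 235. Its fold change was 1.24 (SE 0.13, limma adjusted p = 0.000137), and it was 0.13 in Trspfl/fl::AlbCre against Trspfl/fl, a difference of 1.10 (95% interval 0.72 to 1.49, limma adjusted p = 0.022).

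**Figure D4:**
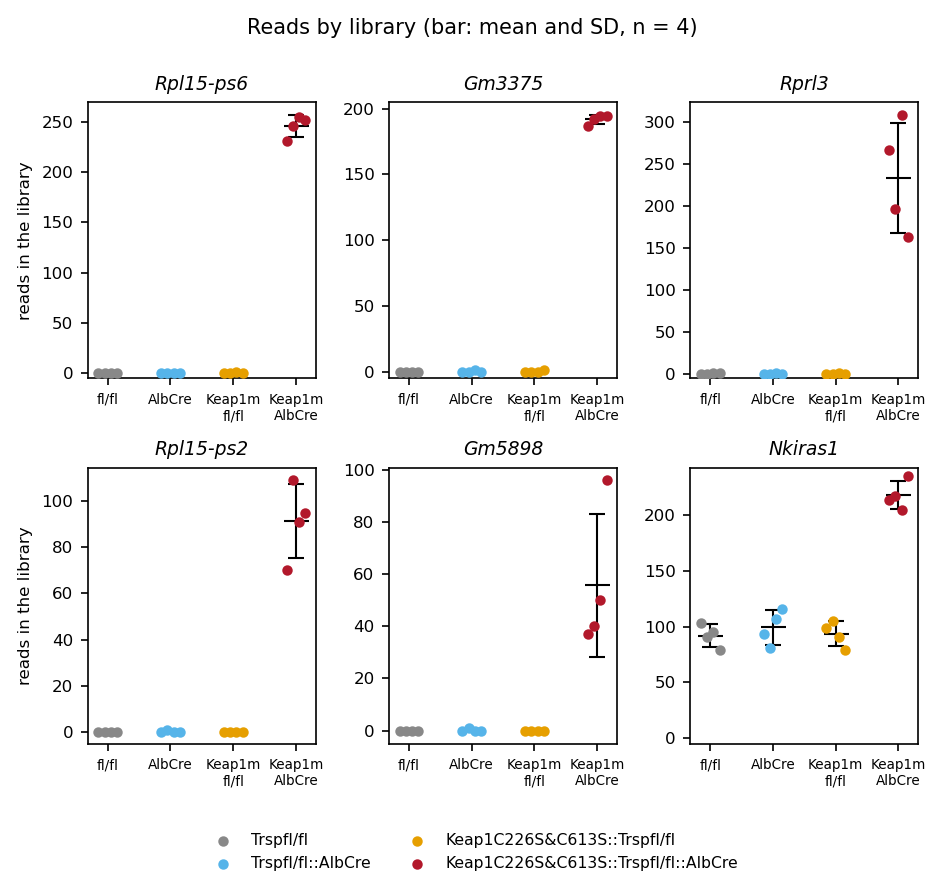
Recovered reads (y axes, linear) of the 5 gene copies and of Nkiras1 are plotted for each of the 16 libraries by genotype (x axes), with bars for the mean and SD of 4. The copies have at most 1 read in 12 libraries and 37 to 308 in the 4 compound mutants, and Nkiras1 has 205 to 235 in the compound mutants against 79 to 105 in the Keap1 mutant controls.

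The other called genes were of mixed function. Bco2 (ENSMUSG00000032066), a carotenoid-cleaving oxygenase of mitochondria, read 8.16, 7.55, 7.87 and 7.4 in the controls and 5.61, 5.92, 5.66 and 6.77 in the compound mutants, with library 4 nearest to the controls (fold change -1.76, limma adjusted p = 0.00148). Aqp9 (ENSMUSG00000032204), the channel by which hepatocytes take up glycerol, read 12.87, 12.58, 12.67 and 12.28 in the controls and 11.05, 11.72, 11.29 and 11.63 in the compound mutants (fold change -1.18, limma adjusted p = 0.00709). Tram2 (ENSMUSG00000041779), a translocon-associated protein, read 9.56 to 10.08 in the controls and 8.59 to 8.88 in the compound mutants. Tram2 was also at 8.42 to 8.82 in Trspfl/fl and 8.65 to 8.86 in Trspfl/fl::AlbCre, so the Keap1 mutant control alone was high, and the interaction of -1.23 was called (limma adjusted p = 0.00501). Ccdc68 also had its highest group mean in the Keap1 mutant control, with 5.87, 5.75, 7.24 and 5.92 in Trspfl/fl, Trspfl/fl::AlbCre, the Keap1 mutant control and the compound mutant. Extl1, a glycosyltransferase of the exostosin family, rose from 3.33, 3.66, 4.09 and 2.78 to 7.27, 6.22, 5.50 and 6.27 (limma adjusted p = 0.00986). Ccdc68 and Extl1 were the genes of this group that lost their call without any 1 of the 8 compared libraries, with fold changes between -1.39 and -1.19 and between 2.53 and 3.12. Nxpe2 and Aqp9 were still called in 3, Pcp4l1 in 4 and Tram2 in 6 of those 8 fits.

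Nxpe2 fell with both Keap1 genotypes, by 1.90 with the substitutions (limma adjusted p = 0.00514) and by 1.68 without them. Pcp4l1, whose product resembles the calmodulin-binding protein PCP4, read 9.97, 9.26, 10.19 and 8.51 in the controls and 7.15 to 7.76 in the compound mutants (fold change -2.10, limma adjusted p = 0.00326). Ikbkg, the regulatory subunit of the IKK complex, rose by 1.09 (limma adjusted p = 0.0157) and by 1.06 in the normal Keap1 background. Impact, a regulator of the kinase GCN2, rose by 0.84 (limma adjusted p = 0.0157) and by 0.84 there, with an interaction of -0.01 (95% interval -0.46 to 0.44). Of the 126 genes with an adjusted p under 0.05, 23 passed the same limit in the same direction in Trspfl/fl::AlbCre against Trspfl/fl. That comparison shares no library with this one, but all genotypes shared the estimate of the spread, so the tests are not independent. How many of all genes passed this limit there is not given, so the 23 are a description.

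Further genes with an adjusted p under 0.05 outside the called set are given with their sizes. Higher were Myo7b, an unconventional myosin of microvilli (2.76), Fst, the activin antagonist follistatin (1.83), and the noncoding transcript Snhg14 (1.75). Lower were Adcy4, an adenylyl cyclase (-0.89), Snapc5, a subunit of the small nuclear RNA activating complex (-1.07), Lrrk1, a kinase (-0.74), St3gal4, a sialyltransferase (-0.60), and the unnamed transcripts A230004M16Rik (-1.41) and C630043F03Rik (-0.79). The limma adjusted p of these genes lay between 0.00404 and 0.0157.

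Genes of amino acid supply had higher values in the compound mutant, and 1 passed the test. Of 24 ATF4 targets, 22 were tested, 20 had a positive fold change, and the median was 0.56, and Psat1 was the 1 member that rose. ATF4 is the factor through which cells raise amino acid synthesis and transport under stress. Psat1 (ENSMUSG00000024640), an aminotransferase of serine synthesis, read 4.42, 5.16, 5.10 and 5.15 in the controls and 8.69, 7.06, 7.71 and 6.17 in the compound mutants, with library 1 highest and library 4 lowest (fold change 2.45, SE 0.45, limma adjusted p = 0.0171). Asns, the asparagine synthetase, had 9.51, 7.92, 8.84 and 7.38 in the compound mutants against 5.97 to 6.97 in the controls (limma adjusted p = 0.0764). Fgf21, a hormone secreted by stressed liver, had 7.53, 8.04, 7.26 and 4.39 against 3.15 to 4.34 (limma adjusted p = 0.119). The list median was 0.34 in Trspfl/fl::AlbCre against Trspfl/fl.

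Ribosomal protein and proteasome genes were listed after their values were seen, so their counts are a description with no test. Of 80 tested genes of cytosolic ribosomal proteins, 78 had a positive fold change with a median of 0.34, 8 had an adjusted p under 0.05, and 21 did not overlap between groups. Each of the 21 was higher, where 3.97% of all genes tested were higher without overlap. Rpl34 rose from 10.09 ± 0.19 to 10.63 ± 0.06 (limma adjusted p = 0.00849) and Rps25 from 10.67 ± 0.14 to 11.19 ± 0.08 (limma adjusted p = 0.0156). Their means in Trspfl/fl, 10.53 and 11.02, were nearer to the compound mutant than to the Keap1 mutant control. Of 38 proteasome genes, 35 had a positive fold change, with a median of 0.29. For both lists the Keap1 mutant control lay below Trspfl/fl in most members, 77 of 80 and 34 of 38. Control library 4 was apart from the other controls in the ribosomal list, with a median deviation of 0.30 from the control mean.

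Hepatocyte genes had lower values in the compound mutant, by different amounts in each library. Of 12 hepatocyte markers, 10 had a negative fold change and 0 passed the test, with a median of -0.38. Ttr, which encodes the thyroxine carrier transthyretin, had means of 15.80 ± 0.18 and 14.99 ± 0.44 (limma adjusted p = 0.14). Their summed normalized count was 2620000 to 3090000 in the controls and 1460000, 2320000, 1880000 and 2370000 in compound mutant libraries 1 to 4, and no marker was at 0. The hepatocyte markers were therefore read in every library.

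Genes of the zone around the central vein, where glutamine synthesis and much of drug metabolism take place, had lower values as well. Of 21 pericentral genes, 20 had a negative fold change, 9 did not overlap between groups, and 2 fell, with a list median of -0.88. Each of the 9 was lower, where 3.71% of all genes tested were lower without overlap. The 2 were Gulo, of vitamin C synthesis, with a fold change of -0.88 (limma adjusted p = 0.0468), and Ahr, the aryl hydrocarbon receptor, with -0.59 (limma adjusted p = 0.0493). The periportal list had a median of -0.05 over 20 genes and 0 passed. The P450 list had a median of -0.65 over 21 genes and 0 passed, with Cyp1a2 at 12.71 ± 0.69 and 11.04 ± 0.91 (limma adjusted p = 0.0694).

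Compound mutant libraries 1 and 3 differed from libraries 2 and 4. Taking for each library the median deviation of a list from the control mean, the P450 list was at -1.48 and -0.90 in libraries 1 and 3 and at -0.35 and -0.22 in libraries 2 and 4. The acute phase list, made of plasma proteins that the liver raises in inflammation, was at 1.57 and 1.27 in libraries 1 and 3 and at -0.09 and -0.19 in libraries 2 and 4. Saa1, serum amyloid A, read 14.64, 7.73, 13.15 and 6.29 in the compound mutants and 6.06 to 7.37 in the controls, so that its fold change of 3.64 rested on 2 libraries (limma adjusted p = 0.272). In the acute phase list 21 of 23 members were positive, 0 passed, and 1 was higher without overlap between groups. That is near the share over all genes tested, 3.97%. The selenoprotein list, in contrast, was at -0.51, -0.48, -0.44 and -0.35 in libraries 1 to 4 and the MHC list at -1.17, -0.70, -0.78 and -1.33. The NRF2 list was at 0.21, 0.30, 0.12 and 0.58, highest in library 4.

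**Figure D5:**
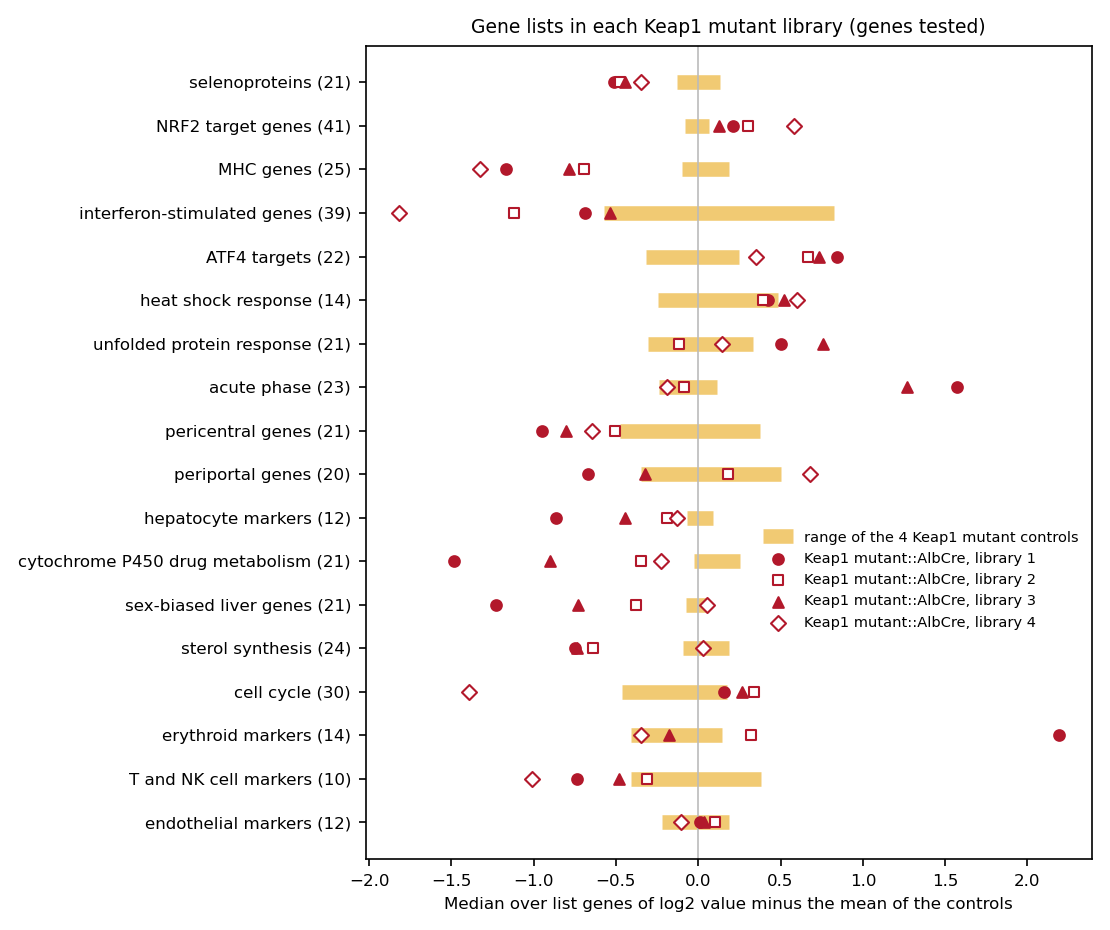
For 18 gene lists (number of genes tested in brackets) the x axis gives the median over the list of the log2 value minus the mean of the 4 Keap1 mutant controls. Bars span the 4 controls and each symbol is 1 compound mutant library. Selenoproteins and MHC genes lie below the controls in all 4 libraries, while the acute phase list is high only in libraries 1 and 3.

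Library 4 and library 1 each stood apart in another list. The cell cycle list was at -1.39 in library 4 and at 0.15 to 0.34 in the other compound mutants, and the erythroid list was at 2.19 in library 1 and at -0.35 to 0.32 in the others. The summed normalized count of the erythroid markers was 101000 in library 1 and 17700 to 30800 in the controls. The list of sex-biased liver genes was at -1.23 in library 1, the library with Xist reads, and at -0.38, -0.73 and 0.05 in the others, and their part in the other results was not tested. Over all genes tested, the SD was larger in the compound mutants than in the controls for 59% of genes (median SD 0.267 against 0.217).

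Further lists gave no member past an adjusted p of 0.05. These were the unfolded protein response (median 0.38, 16 of 21 positive), the heat shock response (median 0.42, 13 of 14 positive), sterol synthesis (median -0.55, 21 of 24 negative), bile acid genes (median -0.38) and p53 targets (median 0.04). The median of the sterol list was -0.77 in Trspfl/fl::AlbCre against Trspfl/fl. Endothelial markers, with sums of 13600 to 17700 in the controls and 13800 to 16900 in the compound mutants, had a median of -0.02.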

How the data were processed

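RNA-seq of 16 livers was analysed, and per the study's methods rRNA-depleted, strand-specific paired-end reads were quantified with Salmon against GENCODE mouse transcripts and processed in iDEP. The values deposited by the authors are log2 of the count divided by a size factor, plus 4, in a table of 18578 rows, although the methods name TPM. Whole reads were recovered for all low values checked (up to 200 reads, tolerance 0.05 reads). Rows without an identifier (369, with 0.274% to 0.627% of reads) were left out, and 0 columns of per-sample values were unused. limma 3.58.1 (R 4.3.3) with a mean-variance trend was fitted to the 4 genotypes without covariates, with Benjamini-Hochberg adjustment over 15781 genes and an interaction contrast for the Keap1 genotype. The fit was tested on simulated data. Named genes were all called genes, the genes named by the study, selenoprotein genes, list members with an adjusted p under 0.05 (or, with at most 1 of these, up to 3 with the smallest p), the next 20 genes by adjusted p, Keap1 and Nfe2l2. The comparison, genes and 40 lists were chosen with earlier results of these data known, and 2 lists were added after their values were seen. Copies were aligned with blastn 2.17.0. Alternatives changed the constant, filter, scaling, samples, trend, block, threshold and test (voom on recovered reads), or left out 1 library. Intervals of read ratios cover counting error only.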

Additional observations from a re-analysis of the deposited data

Results flagged for a closer look

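A library far from the other 3 of its group by Dixon's criterion was found in 10 of 204 groups of values scanned, where about 10.2 would arise at 1 in 20. In the Keap1 mutant controls these were Rpl15-ps6 at 2.27 and Rprl3 at 2.27 in library 3 and Gm3375 at 2.31 in library 4, each a single read where the other controls had 0. Further control values were Aox1 at 6.89 in library 4 (others 7.67 to 7.72), Nqo1 at 5.40 in library 3 (others 5.59 to 5.61), the P450 list at 0.26 in library 3 (others -0.03 to 0.01) and the ribosomal protein list at 0.30 in library 4 (others -0.12 to -0.08). In the compound mutants they were Xist at 14.71 in library 1 (others 4.59 to 5.76), the sterol synthesis list at 0.03 in library 4 (others -0.75 to -0.64) and the cell cycle list at -1.39 in library 4 (others 0.15 to 0.34). Gene values are log2(normalized count + 4), and list values are median deviations from the control mean on that scale.

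The knockout effect differed between Keap1 genotypes by the limma interaction in 9 genes at the thresholds of the study. By fitted value it was larger with the KEAP1 substitutions for the gene copies Rpl15-ps6 (5.80), Gm3375 (5.35), Rprl3 (5.77), Rpl15-ps2 (4.36) and Gm5898 (3.61). It was lower for Tram2 (-1.23), Gsta1 (-5.21), Gm3776 (-5.19) and Vtcn1 (-3.84). The 5 copies passed the filter only through the compound mutants, so their interactions restate that pattern and give no separate support. Their reads are uncertain, as described above. Gsta1, Gm3776 and Vtcn1 had at most 1, 2 and 4 reads in any Keap1 mutant control, where this scale understates fold changes. Gm3776 had group means of 2.97 in Trspfl/fl, 9.60 in Trspfl/fl::AlbCre, 2.22 in the Keap1 mutant control and 3.65 in the compound mutant. Vtcn1, which encodes an immune checkpoint ligand, had means of 2.88, 6.5, 2.62 and 2.40 in the same order.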

How the results depend on the processing

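Of 4746 values of named genes under the alternatives, 4559 stayed on the same side of the threshold, 151 no longer passed and 36 newly passed. Direction was compared only for genes with a call, and 0 of those values changed it. Genes without a call could change direction, as Gstm1 did, at -0.14 to 0.47 with 1 compared library left out. The counts of called genes, 11 higher and 16 lower, became 19 higher with scaling by library totals, 5 higher with a normalized count of 10 in 8 libraries (which takes out the 5 gene copies), 10 lower without the trend, and 31 higher and 44 lower at an adjusted p under 0.05. Replicate numbers did not pair the samples (correlations of same-numbered libraries of the compared groups -0.006, -0.031, -0.123 and -0.042), and the replicate block gave 8 higher and 6 lower. Leaving out 1 library gave 7 to 16 higher and 6 to 26 lower. Fewest were found without control library 3 (7 and 7), control library 1 (8 and 6), compound mutant library 2 (7 and 15) and compound mutant library 3 (12 and 7), and control library 2 left 8 and 9, while without compound mutant library 4 there were 16 and 26. The 5 positive interactions became 0 with the 8-library filter and 5 to 7 with 1 library left out. The 4 negative ones became 2 and 1 with constants of 1 and 0.5, 0 with the 8-library filter, 1 with voom, 9 at an adjusted p under 0.05, and 3 to 8 with 1 library left out. The causes were not tested.

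Scaling by library totals shifted the median of all genes to 0.12, and list medians there were -0.30 for selenoproteins, 0.20 for selenocysteine machinery, 0.31 for NRF2 targets, 0.13 for sulfur amino acid metabolism, 0.18 for peroxide enzymes, -0.42 for sterol synthesis, -0.25 for bile acids, 0.17 for p53 targets, -0.37 for sex-biased genes, 0.18 for X and Y dosage, 0.20 for fetal liver, 0.0435 for iron handling, 0.0821 for lipid peroxidation defence, 0.0616 for glycolysis, -0.0234 for the pentose phosphate pathway, -0.25 for hepatocyte markers and 0.36 for stellate markers. Quantile normalization gave 0.32 for NRF2 targets, 0.77 for acute phase, -0.83 for MHC genes, -0.0363 for iron handling and -0.17 for hepatocyte markers. The 8-library filter gave -0.17 for lipid peroxidation defence, and voom gave -0.59 for sex-biased genes. With 1 library left out the medians ranged from -0.60 to -0.32 for selenoproteins, 0.16 to 0.35 for NRF2 targets, 0.30 to 0.90 for acute phase, -0.50 to -0.19 for bile acids, -0.39 to 0.21 for cell cycle, -0.13 to 0.0577 for cholangiocyte markers, -0.51 to -0.0322 for circadian genes, -0.90 to -0.46 for P450 genes, -0.0433 to 0.50 for erythroid markers and -0.54 to -0.18 for fatty acid synthesis. They ranged from 0.0265 to 0.23 for fetal liver, 0.0592 to 0.37 for fibrosis, -0.25 to 0.023 for glycolysis, -0.53 to -0.18 for hepatocyte markers, -0.13 to -0.03 for iron handling, -0.12 to 0.0667 for lipid peroxidation defence, 0.0367 to 0.27 for p53 targets, -0.23 to -0.10 for the pentose phosphate pathway, -0.71 to -0.41 for sex-biased genes, -0.71 to -0.47 for sterol synthesis and -0.17 to 0.0623 for sulfur amino acid metabolism. Of 1092 list medians under the alternatives, 1024 moved by less than the spread between control libraries. With 4 livers a group, changes of weakly expressed genes are the least precise.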

Other observations

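Rpl15-ps3, another copy of Rpl15 and named after its values were seen, was read in some livers and not in others of the same genotype, except in the compound mutants. It had 247, 0, 278 and 219 reads in Trspfl/fl, 0, 164, 120 and 276 in Trspfl/fl::AlbCre, 78, 42, 0 and 0 in the Keap1 mutant controls, and 0 in the 4 compound mutants. Its fold change in the compound mutant was -1.91 (95% interval -5.03 to 1.21, limma adjusted p = 0.628). The 4 compound mutants with 0 reads on this copy were those with reads on Rpl15-ps6 and Rpl15-ps2.

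Hamp, which encodes the iron hormone hepcidin, read 2.28, 2.0, 2.0 and 4.20 in the Keap1 mutant controls and 5.08, 6.70, 8.16 and 8.26 in the compound mutants. The groups did not overlap, and the fold change of 4.43 missed the threshold (limma adjusted p = 0.164).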
